A study of Mus musculus with 2 samples.

Results

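The cells annotated as M2 macrophages with high Cx3cr1 were 242 of the 6953 annotated barcodes of 2 single-cell RNA-sequencing libraries of regenerating mouse muscle. They were chosen by the authors' cell type name alone, 82 of 3537 barcodes at 2 days post-injury (dpi) and 160 of 3416 at 7 dpi, and 1 of the 160 was left out because it held too few genes. They are called Cx3cr1-high cells here. The authors named clusters of a large integrated collection, so the names rest in part on the genes described here, and a difference between labels is a description of them.

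The study mapped the cell populations of injured mouse muscle over time. Each library came from the tibialis anterior, the shin muscle, of 1 C57BL/6J mouse (C57Bl/6 in the sample labels) collected 2 or 7 days after the muscle was injured with notexin, a toxin of tiger snake venom that destroys muscle fibres. Whole muscle was dissociated, so no surface marker was used to sort the cells, and no uninjured library was analysed here. With 1 library per time point, time, mouse and library cannot be told apart and no test between time points was possible. Every value below is therefore a value of these libraries, with an exact 95% interval that covers counting error only.

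The records of the mice disagreed. The sample labels gave both as 7 months old and female, whereas the cell annotation gave 4 months at 2 dpi, 7 months at 7 dpi and male sex. Over all annotated barcodes, the Y-linked gene Ddx3y had 2792 counts in 1493 of 3537 barcodes at 2 dpi and 2107 counts in 1248 of 3416 at 7 dpi, and Xist, the RNA of the inactive X chromosome, had 4 counts and 1 count. Both libraries thus went against the female label, and age differed between the time points by one record and not by the other. No Cx3cr1-high barcode occurred in both libraries, and 1 of the other annotated barcodes did.

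Macrophages of injured muscle derive largely from blood monocytes that enter the tissue, clear dead fibres and later change their gene programme as the fibres regrow. Cx3cr1 is the receptor for fractalkine and is used to mark monocyte-derived and tissue macrophages. MHC class II molecules, made of an alpha and a beta chain held together at first by the invariant chain Cd74, present peptides to CD4+ T cells. Ciita is the coactivator that switches these genes on together, acting through proteins bound to short promoter elements called the X and Y boxes.

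The promoters of 3 class II genes are printed because class II genes led the ranking of genes higher in these cells than in the other macrophage labels at 2 dpi. At 7 dpi none of them passed 2-fold in that comparison. Each runs from 250 bases before to 50 bases after the RefSeq start (GRCm38.p6), 5′ to 3′ on the strand of the gene. Capitals mark matches to the Y box letters TGATTGG and the X box letters AAC, any 2 bases and then ATGATG, searched on both strands, the letters being chosen with these promoters in view. H2-Aa, the alpha chain of I-A, lies on the minus strand (chr17:34287774-34288073), and H2-Eb1, the beta chain of I-E (chr17:34305617-34305916), and H2-DMb1, a chain of the peptide exchange factor H2-DM (chr17:34152941-34153240), lie on the plus strand.
H2-Aa: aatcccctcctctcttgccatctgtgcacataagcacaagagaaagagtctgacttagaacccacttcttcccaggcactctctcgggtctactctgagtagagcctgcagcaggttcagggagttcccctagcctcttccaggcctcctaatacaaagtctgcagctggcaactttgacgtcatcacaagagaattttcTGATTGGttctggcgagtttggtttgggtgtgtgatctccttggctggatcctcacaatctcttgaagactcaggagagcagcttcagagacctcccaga
H2-Eb1: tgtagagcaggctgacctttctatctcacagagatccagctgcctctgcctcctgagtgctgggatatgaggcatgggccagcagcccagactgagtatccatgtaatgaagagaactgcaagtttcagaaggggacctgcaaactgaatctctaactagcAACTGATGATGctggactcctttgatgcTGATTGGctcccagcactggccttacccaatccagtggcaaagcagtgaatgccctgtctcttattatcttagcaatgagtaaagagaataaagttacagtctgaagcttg
H2-DMb1: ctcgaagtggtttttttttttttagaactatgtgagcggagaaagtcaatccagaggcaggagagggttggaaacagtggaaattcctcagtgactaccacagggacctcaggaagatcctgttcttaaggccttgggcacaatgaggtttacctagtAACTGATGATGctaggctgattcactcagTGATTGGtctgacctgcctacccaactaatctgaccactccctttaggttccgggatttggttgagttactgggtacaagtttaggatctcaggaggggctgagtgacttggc
The Y box began 50, 61 and 63 bases before the start of H2-Aa, H2-Eb1 and H2-DMb1, and the X box 89 and 92 bases before that of H2-Eb1 and H2-DMb1, with no match to these X box letters in the H2-Aa window. Of 10 class II pathway genes 7 were in the promoter table, 6 of them with the Y box and 4 with the X box. Over 32851 promoter windows of the same length, 7.82% held the Y box letters and 0.137% the X box letters. A match is a description of the sequence and not a measured binding site.

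The Cx3cr1-high cells held a median of 10168 transcripts (range 3448 to 27845) and 2682 genes per cell at 2 dpi, and 7132 transcripts (2196 to 18177) and 2149 genes at 7 dpi. Mitochondrial transcripts made up a median of 5.39% and 3.71% of their counts. Levels below are CPM, in which the summed counts of each group are scaled to the same total. These sums were 867694 counts for the 82 cells at 2 dpi and 1226524 for the 159 cells at 7 dpi. The comparison group is the other macrophage labels together, namely M2 macrophages with low Cx3cr1 (242 cells at 2 dpi and 105 at 7 dpi) and M1 macrophages (468 and 228). A gene is called higher or lower where 2 groups differed at least 2-fold, among genes with at least 50 counts over both groups and with counts under 3 taken as 3. Some genes reached that minimum only through the group where they were high. No count over a list, nor its median, is therefore taken as support.

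The cells met part of their name. Cx3cr1 (chr9:119901616-120069879) stood at 29.96 CPM (19.6 to 43.9) at 2 dpi, against 2.85 in Cx3cr1-low M2 and 8.86 in M1 macrophages, and at 516 CPM (477 to 558) at 7 dpi, against 230 and 266. Cd72, a C-type lectin receptor that dampens immune receptor signals, stood at 26.5 CPM at 2 dpi and 598 CPM at 7 dpi, against 5.24 and 308 in the other macrophage labels. Its 23 counts at 2 dpi lay in 6 of 82 cells, 1 of which held 47.8% of them. Dendritic cells held 41.9 CPM of it at 2 dpi and Cxcl10+ monocytes 546 CPM (475 to 625) at 7 dpi. Of the macrophage labels the named cells were highest in both genes on each day, though for Cx3cr1 at 2 dpi inflammatory monocytes, at 21.8 CPM (16.4 to 28.4), overlapped with them, and at 7 dpi Cxcl10+ monocytes stood at 359.95 CPM. The other macrophages at 7 dpi held more Cx3cr1 than the named cells did at 2 dpi. A Cx3cr1 count was found in 20.7% of the 82 cells at 2 dpi and in 86.2% of the 159 cells at 7 dpi. After thinning each cell to 2000 counts these shares were 3.66% and 61.0%, and the share at 7 dpi was 33.7% in Cx3cr1-low M2 and 32.5% in M1 macrophages, while 0 of 323 endothelial cells (median depth 4328 counts, against 7132 in Cx3cr1-high cells) held one, which allows a share of cells with a count of up to 0.929% (3 counts in 323 cells). The word M2 was met less well. Mrc1, the mannose receptor commonly used to mark alternatively activated macrophages, stood at 410 CPM (369 to 455) at 2 dpi, against 1821 CPM in Cx3cr1-low M2 and 806 CPM in M1 macrophages. At 7 dpi it stood at 74.2 CPM (59.7 to 91.1), against 561 and 125 CPM. The scavenger receptor Cd163 had 0 counts at 2 dpi and 2 counts at 7 dpi.

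**Figure D1:**
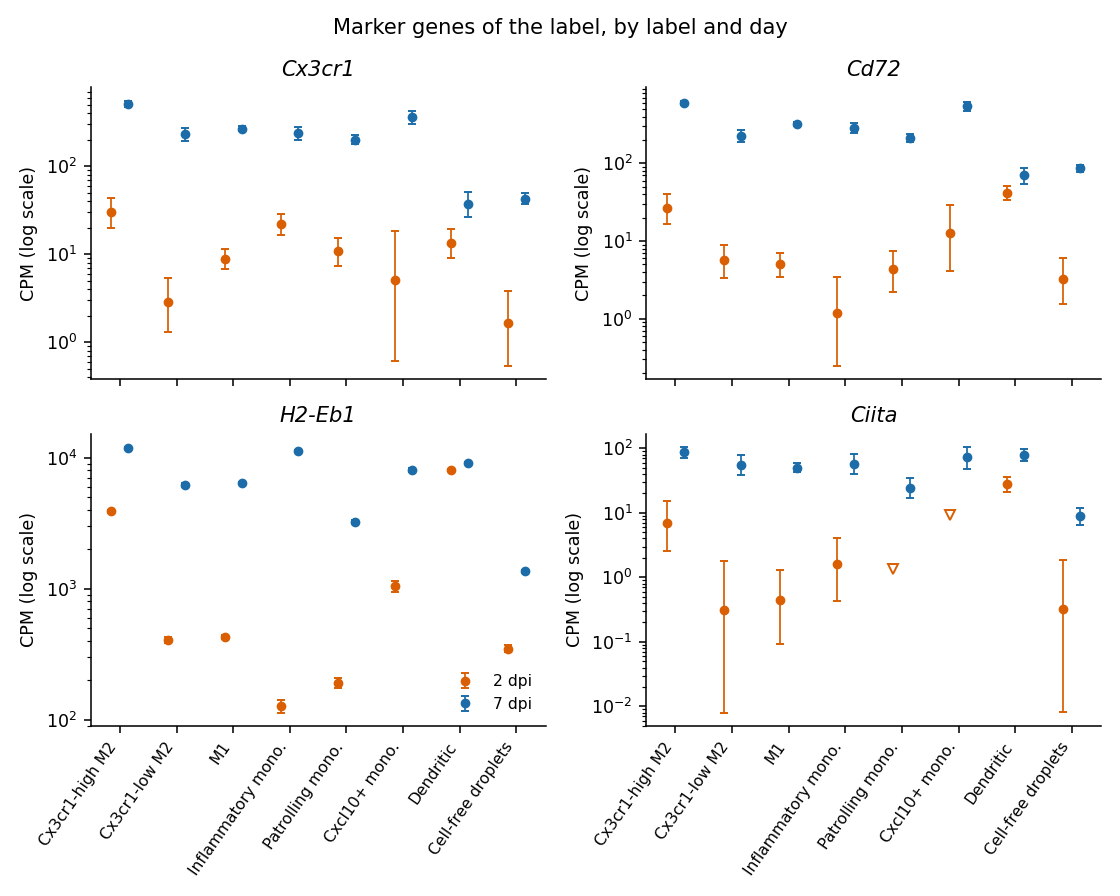
Levels of Cx3cr1, Cd72, H2-Eb1 and Ciita in CPM (log axis) for each monocyte and macrophage label, dendritic cells and nearly empty (cell-free) droplets at 2 and 7 dpi. Bars give the exact 95% counting interval and open triangles its upper end where the count was 0. Cx3cr1 in Cx3cr1-high cells lay at 29.96 CPM at 2 dpi and 516 CPM at 7 dpi, and H2-Eb1 at 3878 and 11854 CPM.

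Cx3cr1-high cells took a larger share of the cells at 7 dpi than at 2 dpi. Of all annotated cells they made up 2.58% (2.06 to 3.19) and 4.97% (4.25 to 5.79), a difference of 2.39 percentage points (1.44 to 3.36). Of monocytes and macrophages they made up 6.35% (5.08 to 7.82; 82 of 1292) and 21.0% (18.2 to 24.1; 159 of 757), a difference of 14.7 points (11.5 to 18.0). The number of all monocytes and macrophages in that denominator fell from 1292 to 757. Over the same denominator the share of Cx3cr1-low M2 macrophages went from 18.7% to 13.9%, of M1 macrophages from 36.2% to 30.1% and of inflammatory monocytes from 21.4% to 11.1%, while that of patrolling monocytes went from 14.4% to 18.0% and of Cxcl10+ monocytes from 2.94% to 5.94%.

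**Figure D2:**
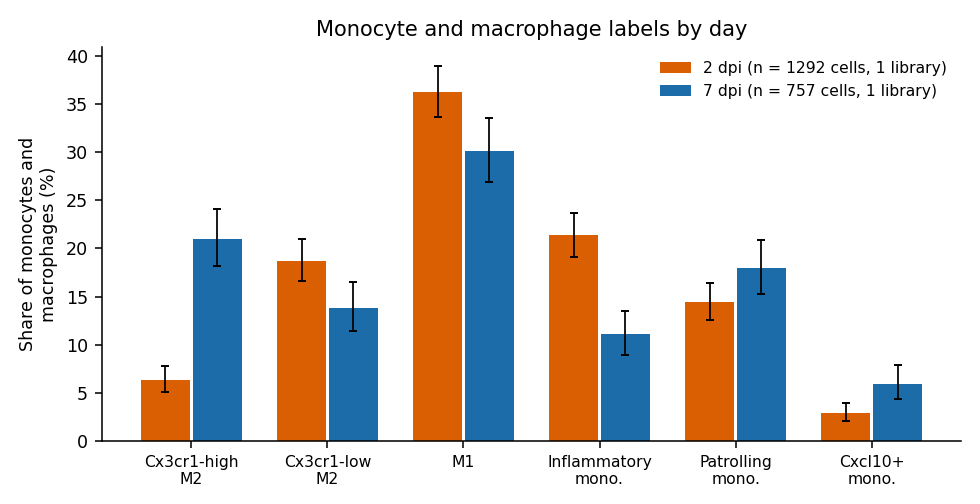
Share of each monocyte and macrophage label among all monocytes and macrophages (percent) at 2 and 7 dpi, with exact 95% intervals. Cx3cr1-high cells stood at 6.35% and 21.0%.

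Most class II genes were higher at 7 dpi than at 2 dpi in Cx3cr1-high cells. H2-Eb1 stood at 3878 CPM (3748 to 4011) at 2 dpi and 11854 CPM at 7 dpi, 3.06-fold higher (2.94 to 3.17). The other chains moved alike, H2-Aa from 4173 to 12478 CPM, H2-Ab1, the beta chain of I-A, from 4178 to 12725 CPM, and Cd74 from 9507 to 28714 CPM. H2-DMa and H2-DMb1, the chains that help load peptides, went from 307 to 859 CPM and from 375 to 936 CPM. Ciita (chr16:10480059-10528418) was 12.5-fold higher at 7 dpi (5.56 to 34.8), at 6.91 and 86.4 CPM, the first resting on 6 counts. Ctss, the protease that trims the invariant chain, was 3.27-fold higher. Of the 19 class II presentation genes listed, 13 had enough counts, of which 10 were higher and 0 lower at 7 dpi, with a median log2 ratio of 1.59. The other 3, under 2-fold, were Ifi30, a lysosomal reductase, at −0.39, Rfxap, a subunit of the X box factor, at −0.78, and Cd86, a costimulatory ligand, at −0.56. Ciita, among the 10 higher ones, reached the count minimum only through 7 dpi. Over all 4707 genes compared, 11.6% were higher and 16.6% lower, with a median log2 ratio of −0.24.

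The other macrophage labels held far less class II RNA at 2 dpi, and the gap was smaller at 7 dpi. H2-Eb1 in Cx3cr1-high cells was 9.16-fold (8.75 to 9.58) that of the other macrophage labels at 2 dpi and 1.87-fold (1.83 to 1.91) at 7 dpi. In nearly empty droplets H2-Eb1 stood at 348 CPM at 2 dpi and 1359 CPM at 7 dpi, so that its 423 CPM in the other labels at 2 dpi was near the level of free RNA while that in Cx3cr1-high cells was not. For H2-Aa the ratios were 8.42 and 1.78, for Cd74 6.21 and 1.69, and for H2-DMb1 5.88 and 1.55. H2-Eb1 went up 14.96-fold in the other labels between the days, and the log2 change in Cx3cr1-high cells was smaller by 2.29 (2.22 to 2.36). Ctss did not follow this pattern, with ratios to the other labels of 1.01 at 2 dpi and 0.97 at 7 dpi. The 10 class II pathway genes made up 2.24% of all counts of Cx3cr1-high cells at 2 dpi, between the 0.320% of M1 macrophages and the 4.63% of dendritic cells. At 7 dpi they made up 6.77%, against 4.04% in Cx3cr1-low M2 macrophages, 3.83% in M1 macrophages, 6.15% in inflammatory monocytes and 5.29% in dendritic cells.

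Single cells differed widely in class II RNA at 2 dpi. At 2000 counts per cell, Cx3cr1-high cells held a median of 23 class II counts at 2 dpi (quartiles 6.25 and 61.75, range 0 to 178), whereas both other macrophage labels had a median of 1 and dendritic cells one of 95.5. Of the 82 cells, 69 lay above the 75th percentile of the other macrophage labels, which was 4 counts, and 13 lay at or below it. At 7 dpi the median was 135 (quartiles 101 and 175, range 11 to 268), against 82 in Cx3cr1-low M2 and 80 in M1 macrophages, and 92 of 159 cells lay above the 75th percentile of the other labels. At least 2 counts of the whole class II list, which also holds widely expressed genes, were found in 98.8% of cells at 2 dpi and 100% at 7 dpi. Nearly empty droplets held that list at 2621 and 8878 CPM, so this share cannot tell the cells from free RNA. The groups overlapped on both days, with 53 of 708 cells of the other labels above the median of the Cx3cr1-high cells at 2 dpi and 63 of 329 at 7 dpi.

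**Figure D3:**
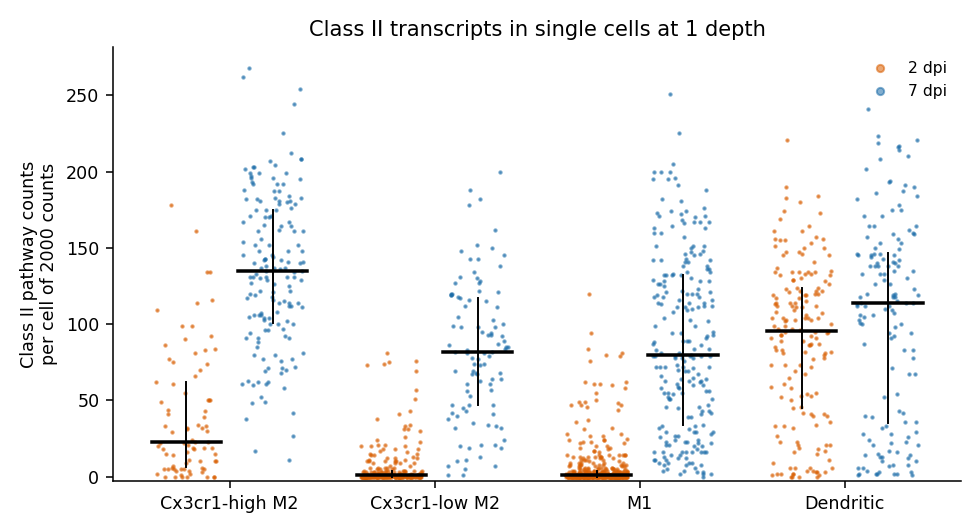
Counts of 10 class II pathway genes in each cell after thinning to 2000 counts, for the macrophage labels and dendritic cells by day, with horizontal bars at the median and vertical lines over the quartiles. Medians of Cx3cr1-high cells were 23 at 2 dpi and 135 at 7 dpi, against 1 and about 80 in the other macrophage labels.

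Some class I and interferon-responsive genes were also higher at 7 dpi. Of 9 class I presentation genes compared, 3 were higher and 0 lower, beside 11.6% and 16.6% of all genes, with a median log2 ratio of 0.70, and H2-K1, a class I heavy chain, went from 1187 to 3418 CPM. Of 17 interferon response genes 6 were higher and 0 lower (median log2 ratio 0.77). The interferon gamma list summed to 270 CPM (236 to 307) at 2 dpi and 668 CPM (623 to 715) at 7 dpi, against 159 and 707 CPM in nearly empty droplets, so its level at 7 dpi was no higher than that of free RNA. Ifit2, an interferon-induced RNA-binding protein, went from 9.22 to 134 CPM and reached the count minimum only through 7 dpi. Irf8, a factor of monocyte and macrophage development, went from 86.4 to 412 CPM.

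Several genes of complement and of lipid handling were higher at 7 dpi. Apoe, the lipid carrier apolipoprotein E, went from 2368 CPM (2267 to 2473) to 50135 CPM, 21.2-fold (20.3 to 22.1), and was found in 157 of 159 cells at 7 dpi. The other macrophage labels went up 18.3-fold. Nearly empty droplets held Apoe at 713 CPM at 2 dpi and 9534 CPM at 7 dpi. C1qa, a chain of the complement starter C1q, went from 686 to 6404 CPM. Trem2, a lipid-sensing receptor of macrophages and microglia, went from 138 to 893 CPM, and Pltp, the phospholipid transfer protein, from 62.2 to 1044 CPM. Axl, a receptor for dying cells, went from 61.1 to 441 CPM and was 6.59-fold (4.61 to 9.34) the level of the other labels at 2 dpi and 1.55-fold at 7 dpi. The 18 listed tissue macrophage genes shared with microglia summed to 666 CPM (613 to 723) at 2 dpi and 3557 CPM (3452 to 3664) at 7 dpi, against 822 and 3776 CPM in the other macrophage labels and 679 and 2693 CPM in nearly empty droplets. Of these genes 13 reached the count minimum, some of them only through their counts at 7 dpi, and their ratios are therefore not counted as support. Beside 11.6% higher and 16.6% lower over all genes, of 14 complement and uptake genes 7 were higher and 2 lower (median 0.94). Among 22 lipid and lysosome genes 8 were higher and 5 lower (median 0.40).

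A few other genes of secreted factors and receptors were low at 2 dpi and higher at 7 dpi. Ccl5, a chemokine for T cells and monocytes, stood at 4.61 CPM at 2 dpi and 394 CPM at 7 dpi, an 85.4-fold ratio (33.1 to 315). At 7 dpi its counts lay in 47 of 159 cells, and 5 of these held 56.9% of them. Lag3, an inhibitory receptor for class II, went from 1.15 to 159 CPM, 138-fold (24.5 to 5476) on 1 count at 2 dpi. Olfml3, a secreted matrix protein, went from 3.46 to 113 CPM, and Pdgfb, a chain of platelet-derived growth factor, from 2.30 to 90.5 CPM. Gdf15, a stress-induced cytokine of the TGF-beta family, went from 17.3 to 308 CPM and Igf1, which promotes muscle growth, from 9.22 to 92.1 CPM. Several of these genes reached the count minimum only through 7 dpi, so no count over the growth factor list is given, and the whole list summed to 1396 CPM (1318 to 1477) at 2 dpi and 2260 CPM (2177 to 2346) at 7 dpi, against 725 and 955 CPM in nearly empty droplets. Of 19 chemokines and chemokine receptors 7 were higher and 8 lower (median log2 ratio −0.51), where 11.6% of all genes were higher and 16.6% lower. Among them Ccl5, Cxcl9 and Cx3cr1 reached the count minimum only through 7 dpi, and Ccr1 and Ccl7 only through 2 dpi. These counts are therefore not taken as support.

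Monocyte genes and the chemokines Ccl2 and Ccl7 were lower at 7 dpi. The 16 monocyte genes summed to 10786 CPM (10569 to 11007) at 2 dpi and 1476 CPM (1409 to 1545) at 7 dpi, against 4004 and 1947 CPM in nearly empty droplets. Since some of them reached the count minimum only through 2 dpi no count over the list is given. Plac8, a marker of freshly recruited monocytes, stood at 891 CPM (829 to 956) at 2 dpi and 26.1 CPM at 7 dpi, 34.1-fold lower (24.0 to 50.3). S100a4, a calcium-binding protein of motile cells, went from 2683 to 67.7 CPM and Fn1, the matrix protein fibronectin, from 1318 to 53.0 CPM. Vcan, the proteoglycan versican, went from 274 to 0.815 CPM, the latter from 1 count. Ccr2, the receptor by which monocytes enter injured tissue, differed less, at 491 CPM (445 to 540) and 346 CPM (314 to 380). Its ligands Ccl2 and Ccl7 went from 1301 to 97.8 CPM and from 753 to 26.1 CPM, 13.3-fold (11.01 to 16.2) and 28.8-fold (20.2 to 42.5) lower. Clec4e, a receptor for dead-cell and microbial glycolipids, went from 532 to 4.08 CPM, and Timp1, an inhibitor of matrix proteases, from 239 to 1.63 CPM.

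Several genes of alternative activation and of glycolysis were lower too. Chil3, a chitinase-like protein, went from 275 to 0.815 CPM, and Mrc1 was 5.53-fold lower (4.38 to 7.04). Of 8 resident and alternative activation genes 2 were higher and 5 lower, with a median log2 ratio of −1.83, beside 11.6% and 16.6% of all genes. Of 13 glycolysis genes 0 were higher and 6 lower (median −0.89) beside the same shares, among them Gapdh, which went from 913 to 193 CPM, and the pyruvate kinase gene Pkm, from 1173 to 246 CPM.

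General macrophage genes were present at both time points and moved both ways. Lyz2, lysozyme, stood at 11776 CPM at 2 dpi and 18106 CPM at 7 dpi, and Csf1r, the receptor for macrophage colony-stimulating factor, at 393 CPM (352 to 437) and 822 CPM (772 to 874), a log2 ratio of 1.06 that was 0.85 as a mean over cells. Adgre1, which encodes the F4/80 antigen, went from 176 to 581 CPM, while Itgam, the CD11b integrin chain, went from 466 to 111 CPM and Cd14, a receptor for lipopolysaccharide, from 1883 to 590 CPM. Of 12 macrophage identity genes 2 were higher and 2 lower at 7 dpi (median log2 ratio 0.37), beside 11.6% and 16.6% over all genes. Fcgr4, a receptor for IgG, went from 99.1 to 267 CPM, and of 6 Fc receptor genes 3 were higher and 0 lower (median 0.76). Of 13 checkpoint and inhibitory receptor genes 6 were higher and 2 lower (median 0.54), and of 7 iron and haem genes 1 was higher and 0 lower (median 0.32). Lag3 and Cd72 of the checkpoint list and Fcrls of the Fc receptor list reached the count minimum only through 7 dpi.

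Transcription factor genes moved both ways. Of 29 compared 9 were higher and 4 lower at 7 dpi, beside 11.6% and 16.6% over all genes, with a median log2 ratio of 0.31. Klf2, a factor tied to quiescence, went from 135 to 463 CPM and Batf3, a factor of dendritic cell development, from 20.7 CPM (12.3 to 32.8) to 70.9 CPM (56.8 to 87.5). Hif1a, which drives glycolytic genes under low oxygen, went from 264 to 48.1 CPM and Cebpb, a factor of inflammatory macrophages, from 1870 to 549 CPM. Of 10 inflammatory cytokine genes 1 was higher and 3 lower (median −0.43), the first close to the share over all genes. Tnf, tumour necrosis factor, was the higher one, at 47.3 CPM (33.9 to 64.1) and 168 CPM (146 to 193), and Ptgs2, the inducible prostaglandin synthase, was among the lower ones, at 81.8 and 16.3 CPM. Of 7 matrix proteases and inhibitors 2 were higher and 4 lower (median −1.22), Timp2 going from 93.4 to 488 CPM and Mmp19 from 272 to 22.0 CPM.

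Of 16 immediate early and heat shock genes, which tissue dissociation is known to raise, 8 were higher and 1 lower at 7 dpi (median log2 ratio 1.07), beside 11.6% and 16.6% of all genes. Hspa1a, an inducible chaperone, stood at 1365 CPM at 2 dpi and 5183 CPM at 7 dpi, against 797 and 3007 CPM in the other macrophage labels. Jun, a subunit of the AP-1 factor, went from 274 to 1435 CPM, against 308 and 965 CPM. The part of dissociation in these and the other changes was not tested.

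**Figure D4:**
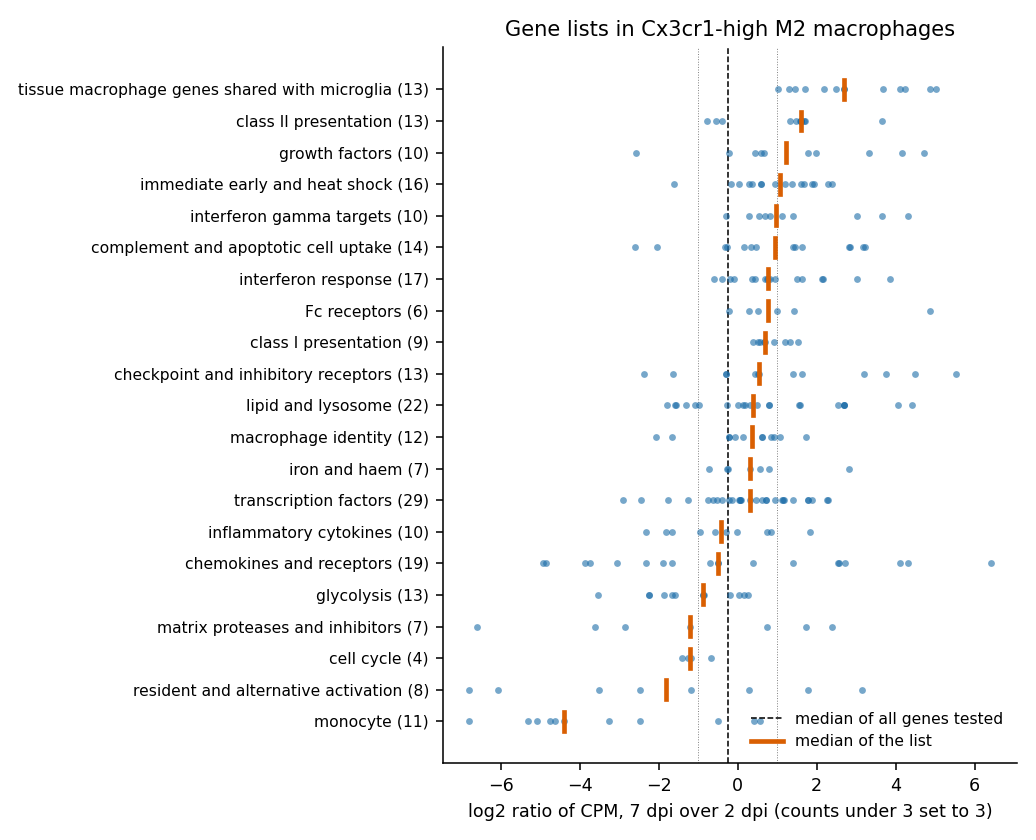
Log2 ratio of CPM at 7 dpi over 2 dpi for the genes of each list in Cx3cr1-high cells, 1 point per gene, with counts under 3 set to 3. Orange bars mark list medians, the dashed line the median of all genes and dotted lines 2-fold. Class II genes had a median of 1.59 and glycolysis genes one of −0.89, beside −0.24 over all genes compared.

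Against the other macrophage labels at 2 dpi, Cx3cr1-high cells held more RNA of several class II genes and less of most resident and alternative activation genes. Of 8392 genes compared, 2.06% were higher and 5.09% lower, with a median log2 ratio of −0.10. Of 14 class II presentation genes 6 were higher and 0 lower (median 0.59), and the highest ratios among well-detected genes were those of H2-Eb1, H2-Ab1 and H2-Aa. Tmem176a, a membrane protein abundant in antigen-presenting cells, stood at 159 CPM in Cx3cr1-high cells and 23.4 CPM in the other labels, a 6.80-fold ratio (5.47 to 8.44). Of 15 monocyte genes 4 were higher and 1 lower. Ace, the angiotensin-converting enzyme, and Treml4, an innate immune receptor, stood at 29.96 against 2.52 CPM and at 21.9 against 3.93 CPM, and the 26 Ace counts lay in 10 of 82 cells. Itgal, the alpha chain of the integrin LFA-1, stood at 72.6 against 22.3 CPM, with 118 CPM in inflammatory and 8.64 CPM in patrolling monocytes. Of 17 interferon response genes 5 were higher and 0 lower (median 0.67).

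Of 14 resident and alternative activation genes, 1 was higher and 10 were lower than in the other labels at 2 dpi. Over all genes 2.06% were higher and 5.09% lower, and the median log2 ratio of the list was −1.59. Cd163 and Folr2, among the lower ones, reached the count minimum only through the other labels. Pf4, a platelet-type chemokine of resident-like macrophages, stood at 453 CPM (409 to 500) in Cx3cr1-high cells, at 8886 CPM in Cx3cr1-low M2 and at 3591 CPM in M1 macrophages. Ccl8, a monocyte-attracting chemokine, stood at 233 CPM against 4598 and 1117 CPM, and all of its counts lay in 5 of the 82 Cx3cr1-high cells. Folr2, the folate receptor beta of resident macrophages, stood at 21.9 against 286 and 88.6 CPM. Gas6, a bridging ligand for Axl and Mertk, had 1 count, or 1.15 CPM, against 83.7 CPM in the other labels, a ratio of 72.6-fold lower (13.003 to 2873). Cd163, with its 0 counts, was at least 23.9-fold lower than in the other labels (3 counts over the group as the floor), and Mrc1 was 2.75-fold lower (2.47 to 3.06). Cx3cr1-high cells were thus the lowest of the 3 macrophage labels for Pf4, Ccl8 and Folr2.

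At 7 dpi fewer genes differed. Of 7222 genes compared, 0.997% were higher and 2.76% lower in Cx3cr1-high cells than in the other labels, with a median log2 ratio of −0.06. No class II presentation gene of 13 passed 2-fold, although the list had a median log2 ratio of 0.63. On the high side, Ccl5 stood at 394 CPM (360 to 430) against 123 CPM in the other labels, a 3.19-fold ratio (2.81 to 3.62). Without cells holding at least 3 counts of any other-cell list, which left 27 of 159 cells and 52 of 333 cells of the other labels, its log2 ratio was −0.82 against 1.67. Nearly empty droplets of that library held Ccl5 at 214 CPM. Ccl3, a chemokine for monocytes and lymphocytes, stood at 648 against 315 CPM, 2.06-fold (1.88 to 2.25), a log2 ratio of 1.04 that was 0.82 as a mean over cells and 0.99 after thinning. Runx3, a transcription factor of lymphocytes and some myeloid cells, stood at 131 against 52.1 CPM, a log2 ratio of 1.33 that was 0.87 without cells with other-cell transcripts. Il1b, the inflammatory cytokine interleukin-1 beta, stood at 835 CPM against 263 CPM in Cx3cr1-low M2 and 454 CPM in M1 macrophages, 1.96-fold (1.81 to 2.12) over both labels together and so under the 2-fold call, and 0 of 10 inflammatory cytokine genes passed it. Of 19 chemokines and receptors 4 were higher and 1 lower (median 0.29).

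On the low side at 7 dpi stood several lipid and lysosome genes and resident and alternative activation genes. Beside 0.997% higher and 2.76% lower over all genes, of 22 lipid and lysosome genes 0 were higher and 8 lower than in the other labels (median log2 ratio −0.69), and of 10 resident and alternative activation genes 1 was higher and 5 lower (median −1.10). The higher one was Retnla, whose 188 counts lay in 2 of the 159 cells. The summed level of the whole resident and alternative activation list was higher in Cx3cr1-high cells, at 1461 CPM (1394 to 1530) against 1235 CPM. In that sum Tgfbi, a matrix protein induced by TGF-beta, stood at 1022 against 569 CPM, under 2-fold. Of 17 complement and uptake genes 0 were higher and 3 lower. Spp1, the secreted matrix protein osteopontin, stood at 748 CPM (701 to 799) in Cx3cr1-high cells, at 6897 CPM in M1 and at 374 CPM in Cx3cr1-low M2 macrophages. Here the M1 label stood apart, and 1 of the 159 Cx3cr1-high cells held 39.8% of the Spp1 counts. Gpnmb, a glycoprotein of lipid-loaded macrophages, stood at 254 CPM in Cx3cr1-high cells, 1631 CPM in M1 and 329 CPM in Cx3cr1-low M2 macrophages. Mmp12, the macrophage elastase, stood at 31.8 against 286 CPM in the other labels, and Ctsl, the lysosomal protease cathepsin L, at 306 against 1444 CPM. Gas6, at 17.1 CPM (10.6 to 26.2) against 88.6 CPM, Pf4, at 75.8 against 419 CPM, Ccl8, at 62.8 against 423 CPM, and Folr2, at 21.2 against 177 CPM, were low as at 2 dpi.

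**Figure D5:**
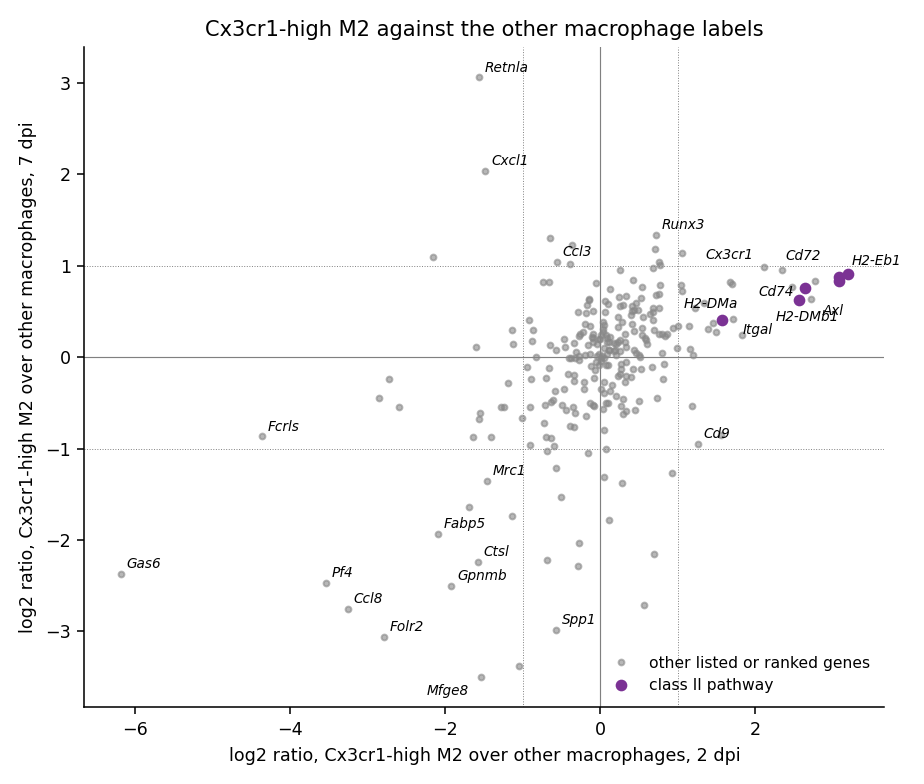
Log2 ratio of CPM in Cx3cr1-high cells over the other macrophage labels at 2 dpi (horizontal axis) and 7 dpi (vertical axis), for listed or ranked genes with at least 50 counts on each day, with class II pathway genes in purple and dotted lines at 2-fold. H2-Eb1 lay at 3.20 and 0.90, and Pf4 at −3.54 and −2.47.

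Cell cycle genes summed to 1486 CPM (1406 to 1569) in Cx3cr1-high cells at 2 dpi, against 978 CPM in the other macrophage labels, and to 900.1 CPM (848 to 955) at 7 dpi, against 991 CPM. Of the 10 with enough counts at 2 dpi, 0 differed 2-fold from the other labels (median log2 ratio 0.50). In that comparison 2.06% of all genes were higher and 5.09% lower, so 0 of 10 is near the share over all genes. Cks2, a cyclin-dependent kinase subunit and one of the genes with the largest ratios at 2 dpi, stood at 74.9 CPM against 23.5 CPM. Between the days, 0 of 4 genes with enough counts were higher and 3 lower at 7 dpi, beside 11.6% and 16.6% of all genes. After thinning, 67.1% (55.8 to 77.1) of cells at 2 dpi and 40.9% (33.2 to 48.9) at 7 dpi held at least 2 counts of the list. Nearly empty droplets held the list at 614 and 801 CPM.

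Transcripts of other cell types were present in the Cx3cr1-high cells. The 9 myofibre genes, such as Acta1 and Mylpf, summed to 20.7 CPM at 2 dpi and 2159 CPM at 7 dpi, against 793 CPM in the other macrophage labels at 7 dpi and 24890 CPM in nearly empty droplets of that library. At 7 dpi 118 of 159 cells held at least 3 such counts, and 10 cells held 51.7% of them. At 7 dpi all 7 myofibre genes compared were higher than in the other labels, beside 0.997% of all genes. Without cells of at least 20 myofibre counts, an alternative chosen after seeing the data that left 129 of 159 cells at 7 dpi, the log2 ratio of H2-Eb1 between the days was 1.69 against 1.61. The 8 dendritic cell genes summed to 29.96 CPM at 2 dpi, against 5.14 in the other macrophage labels, with 3 genes at 0 counts, and the 16 counts of Cd209a lay in 3 of 82 cells. At 7 dpi the sums were 30.2 and 13.02 CPM. Genes of the other 10 cell types were compared in the same way. FAP genes summed to 18.4 CPM at 2 dpi and 230 CPM at 7 dpi, against 22.2 and 216 in the other labels, myogenic genes to 1.15 and 88.1 CPM, against 1.31 and 25.5, and neutrophil genes to 61.1 and 67.7 CPM, against 96.3 and 78.3. Endothelial genes summed to 80.7 and 43.2 CPM, smooth muscle genes to 11.5 and 17.9 CPM, B cell genes to 5.76 and 35.1 CPM and erythroid genes to 10.4 and 3.26 CPM. T cell, NK cell and basophil or mast cell genes lay between 0 and 4.89 CPM. The part of these transcripts in the day changes, that of H2-Eb1 included, was not tested.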

How the data were processed

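Mouse tibialis anterior libraries at 2 and 7 dpi (10x Chromium v3) were analysed, 1 per time point. The authors deposited raw UMI counts for 27998 genes of mm10. They also deposited SoupX values, which are estimated counts after removal of ambient RNA and can be fractional. The file headers name Cell Ranger 3.0.1, the submitters' processing notes 3.1.0 and Seurat 3.1.5. The authors also deposited a table of cell types. Per the methods of the study, doublets were removed with DoubletFinder before annotation. The table holds no doublet calls and no doublet caller was run here.

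On the SoupX values, a minimum of 750 genes and of 1000 transcripts and a maximum mitochondrial share of 30% were set per cell, which left 3178 and 3196 annotated cells. The libraries held 41123913 and 32356088 counts over 4836 and 4889 called barcodes. Uncorrected counts were summed per label and given as CPM. Intervals at 95% were exact Poisson for CPM, Clopper-Pearson for shares and conditional binomial for ratios, with a square-and-add interval for differences of shares and a normal one for differences of log2 changes. No p-value is given, because cells of 1 library are not replicates. A count of 0 was set against 3 counts, also in shares. Folds printed for 1 or 2 counts use the counts as they are, with their interval, whereas calls and rankings take counts under 3 as 3. Cells were thinned to 2000 counts where stated, and nearly empty droplets were raw barcodes with 1 to 100 counts. Ratios were tested on simulated data. Python 3.11.15, numpy 2.4.6, scipy 1.17.1 and pandas 2.3.3 were used.

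Members and the 33 gene lists (413 of 417 genes found) were chosen with earlier results of these data known. Named genes are listed genes and the 10 highest and 10 lowest ratios per comparison among genes with at least 100 counts in 1 group and detected in 20% of its cells, without mitochondrial, ribosomal protein, haemoglobin, myofibre and sex-linked genes. Ddx3y, Xist and the myofibre genes are named only as checks. Alternatives were SoupX values, no and stricter cell limits, a mean over cells, median-of-ratios scaling, thinning, no count minimum, other denominators and leaving out cells with transcripts of other cell types.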

Additional observations from a re-analysis of the deposited data

Results flagged for a closer look

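For 2 genes Cx3cr1-high cells moved one way between 2 and 7 dpi and the other macrophage labels the opposite way, a difference that was not tested. Cxcl14, a chemokine, had a log2 ratio of −1.95 in Cx3cr1-high cells (41 counts at 2 dpi and 15 at 7 dpi) and 1.498 in the other labels (104 and 116 counts), and at 2 dpi 1 of the Cx3cr1-high cells held 48.8% of its counts. Retnla, a secreted protein of alternatively activated macrophages, had a log2 ratio of 3.15 in Cx3cr1-high cells (15 and 188 counts) and −1.48 in the other labels (509 and 72 counts). Its 188 counts at 7 dpi lay in 2 of 159 cells, 118 of them in 1 cell, and its 15 counts at 2 dpi in 1 cell.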

How the results depend on the processing

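No paired analysis was possible because each time point had 1 library and the labels carry no replicate numbers, and for the same reason no library could be left out. SoupX values, no cell limits, stricter cell limits, median-of-ratios scaling and a mean over cells kept all 6 counts of genes past 2-fold within 1.5 times and reversed no named gene. Thinning to 2000 counts gave 171 genes higher and 263 lower at 7 dpi than at 2 dpi (545 and 783 in the report), 70 higher than in the other labels at 2 dpi (173), and 29 higher and 84 lower at 7 dpi (72 and 199), since fewer genes then reached the count minimum. With no count minimum these were 1560, 1506, 2959, 1344 and 472. Leaving out cells with at least 3 counts of an other-cell list left 68 and 27 Cx3cr1-high cells and gave 187 genes higher at 7 dpi than at 2 dpi, and 14 higher and 56 lower than in the other labels at 7 dpi. Over macrophage labels alone the share of Cx3cr1-high cells differed by 22.0 points between the days.

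Without cells with other-cell transcripts, the log2 ratio to the other labels at 7 dpi turned to −0.82 for Ccl5, 0.65 for Clec4e, −0.35 for Mylpf and −1.16 for Retnla, and for Retnla also to 0.27 at 2 dpi and −0.31 between the days. Without cells of at least 20 myofibre counts, chosen after seeing the data, Retnla turned to −2.50 between the days and −2.77 against the other labels at 7 dpi, since the cells left out held most of its counts, and no other named gene reversed. Of 896 alternative values of 112 ratios that were at least 2-fold for a named gene, 25 fell under 2-fold, among them the day change of Csf1r (0.85 to 0.96 under 3 alternatives) and of Fcgr4 (0.76 without cells with other-cell transcripts). The share of cells with cell cycle transcripts was 100% at 2 dpi and 85.5% at 7 dpi unthinned, and 87.8% and 71.1% at 1 count; that with class II transcripts at 2 dpi was 100% in both. Genes with few counts at 2 dpi, such as Lag3 and Gas6, have wide intervals at this depth.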
